A study of Mus musculus with 8 samples.

Results

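The genes described here copy the genome or commit a cell to copying it: 42 genes of DNA replication and S-phase entry, read in the thymus after spaceflight. The set was chosen by gene symbol, and each gene was represented by its probe set with a single gene and the highest mean over the 8 arrays. All 42 had such a probe set, out of 19938 genes that did. The spaceflight group was 4 C57BL/6NTac mice, 8 weeks old, that spent 13 days aboard the space shuttle. The ground-control group was 4 mice of the same strain, age and sex kept on the ground in animal enclosure modules, the cage units also used in flight. No transgene, mutation or drug is named for either group, and the labels do not say which sex was used. RNA came from whole thymus lobes, with 1 Affymetrix array per mouse, and the values are log2 expression values as deposited. The comparison asks whether the machinery of DNA synthesis differed in the organ where T cells mature.

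Before a cell copies its DNA, the origin recognition complex, Cdc6 and Cdt1 load the ring-shaped MCM helicase onto origins in a step called licensing. Cyclin E with Cdk2, and transcription factors of the E2F family, then drive entry into S phase, where Cdc45 and the GINS complex turn the MCM ring into a working helicase and the polymerases follow it. In the thymus this machinery is used mostly by immature thymocytes, which divide in bursts after they first rearrange a T cell receptor chain, while most double-positive thymocytes no longer divide. Many of these genes are known targets of E2F factors, whose sites are rich in G and C after a run of T.

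The promoters of 35 of the 42 genes were in the RefSeq promoter table (GRCm38.p6), each as a window from 250 bases before to 50 bases after the gene's start, and 1 window was used per gene. They were searched on both strands for the letters TTTGGCGC, TTTCCCGC, TTTGGCGG and TTTCGCGC, which are of the E2F type. At least 1 of these was present in 15 of the 35 windows (42.9%), against 654 of 27025 windows of all genes (2.42%). The letters CCAAT were present in 22 of the 35 windows (62.9%), against 37.9% of all windows. A match is a description of letters, not a bound site. The windows below are those of genes with low, middle and near-zero differences in the comparison that follows, written 5′ to 3′ on the gene's own strand with the E2F-type letters in capitals.
Mcm3 (chr1:20820263-20820562, minus strand): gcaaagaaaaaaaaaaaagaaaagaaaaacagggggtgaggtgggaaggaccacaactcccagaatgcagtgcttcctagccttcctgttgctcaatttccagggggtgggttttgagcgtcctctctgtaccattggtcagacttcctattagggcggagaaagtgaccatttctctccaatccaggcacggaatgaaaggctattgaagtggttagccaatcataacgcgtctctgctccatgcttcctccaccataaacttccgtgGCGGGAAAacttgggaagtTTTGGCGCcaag
Mcm5 (chr8:75109259-75109558, plus strand): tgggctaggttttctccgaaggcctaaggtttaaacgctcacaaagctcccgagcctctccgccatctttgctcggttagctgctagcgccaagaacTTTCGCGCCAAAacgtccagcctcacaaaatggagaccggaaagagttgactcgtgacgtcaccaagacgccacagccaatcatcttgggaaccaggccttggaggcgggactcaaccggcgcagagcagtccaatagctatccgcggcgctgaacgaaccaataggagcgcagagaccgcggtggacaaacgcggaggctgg
Cdc6 (chr11:98907901-98908200, plus strand): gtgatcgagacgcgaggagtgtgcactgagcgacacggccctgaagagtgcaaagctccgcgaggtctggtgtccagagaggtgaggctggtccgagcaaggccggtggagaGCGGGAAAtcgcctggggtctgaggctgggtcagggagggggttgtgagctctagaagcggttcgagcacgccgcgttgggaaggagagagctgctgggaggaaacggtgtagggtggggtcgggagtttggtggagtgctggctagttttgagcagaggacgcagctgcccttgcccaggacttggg
Mcm6 (chr1:128359656-128359955, minus strand): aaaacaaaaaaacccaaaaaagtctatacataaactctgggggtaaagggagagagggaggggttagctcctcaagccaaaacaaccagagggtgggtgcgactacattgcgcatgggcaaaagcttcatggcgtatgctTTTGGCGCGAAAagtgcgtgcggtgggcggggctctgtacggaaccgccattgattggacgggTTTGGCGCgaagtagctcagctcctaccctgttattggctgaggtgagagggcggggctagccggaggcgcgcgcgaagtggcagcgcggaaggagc
Chaf1a (chr17:56040166-56040465, plus strand): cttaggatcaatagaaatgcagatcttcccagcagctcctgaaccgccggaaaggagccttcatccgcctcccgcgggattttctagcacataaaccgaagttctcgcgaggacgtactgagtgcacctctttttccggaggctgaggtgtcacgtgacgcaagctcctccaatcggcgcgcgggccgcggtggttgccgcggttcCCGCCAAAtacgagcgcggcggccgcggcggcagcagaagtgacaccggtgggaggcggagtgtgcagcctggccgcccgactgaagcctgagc
In Mcm5 and Mcm6 a match on one strand overlaps a match on the other, which makes a capital run longer than a single match. The 15 genes with a match had a median log2 difference, spaceflight minus ground control, of -0.23, and the 20 without had -0.22. Those medians lie 0.01 apart.

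The tissue was checked by its markers, and several marker lists were lower in spaceflight, as described further below. Of 12 thymocyte markers 10 were measured. All 10 had a lower mean in spaceflight, against 53.5% of all genes and 75.9% of genes above the median level. Their log2 differences ran from -0.25 to -0.02, with a median of -0.15. Rag1, a nuclease that cuts receptor genes, differed least of the 10. It averaged 12.46 in spaceflight and 12.47 in ground control on the log2 scale. Among the 8 arrays, spaceflight replicates 1 and 3 were unlike the rest. Their gene values had an interquartile range of 2.22 in each, against 2.55 to 2.84 in the others, and they correlated with the others at 0.956 to 0.986, where the others correlated among themselves at 0.984 to 0.993. Across all genes cut into 10 groups by level, the median difference reached 0.11 among dim genes and -0.14 among bright genes, and without these 2 arrays it lay between -0.03 and 0.01 in each group. Of the 42 replication genes, 39 were above the median level of all genes, so both all genes and the genes above the median level are given as backgrounds.

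Replication genes had slightly lower means after spaceflight, and none passed the test. The mean was lower in spaceflight for 41 of 42 genes, against 53.5% of all genes and 75.9% of genes above the median level. The median log2 difference was -0.22, against -0.02 over all genes and -0.12 over genes above the median level. By limma, with p-values adjusted over all genes, 0 of 42 were under 0.05, where 16 of 19938 genes (0.0802%) were, and the smallest adjusted p was 0.245, for Ccne2. At an unadjusted limma p under 0.05, 10 were lower and 0 were higher, against 7.38% of all genes lower, 12.4% of genes above the median level lower, and 3.43% of all genes higher. The differences ran from -0.68 to 0.09, with standard errors from 0.10 to 0.23. The p-values set the group difference against the spread between these mice, which with 1 array per mouse also holds the variation between arrays. In limma that spread is drawn towards a value shared over all genes. In whole tissue, fewer dividing cells and less RNA per cell cannot be told apart.

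**Figure D1:**
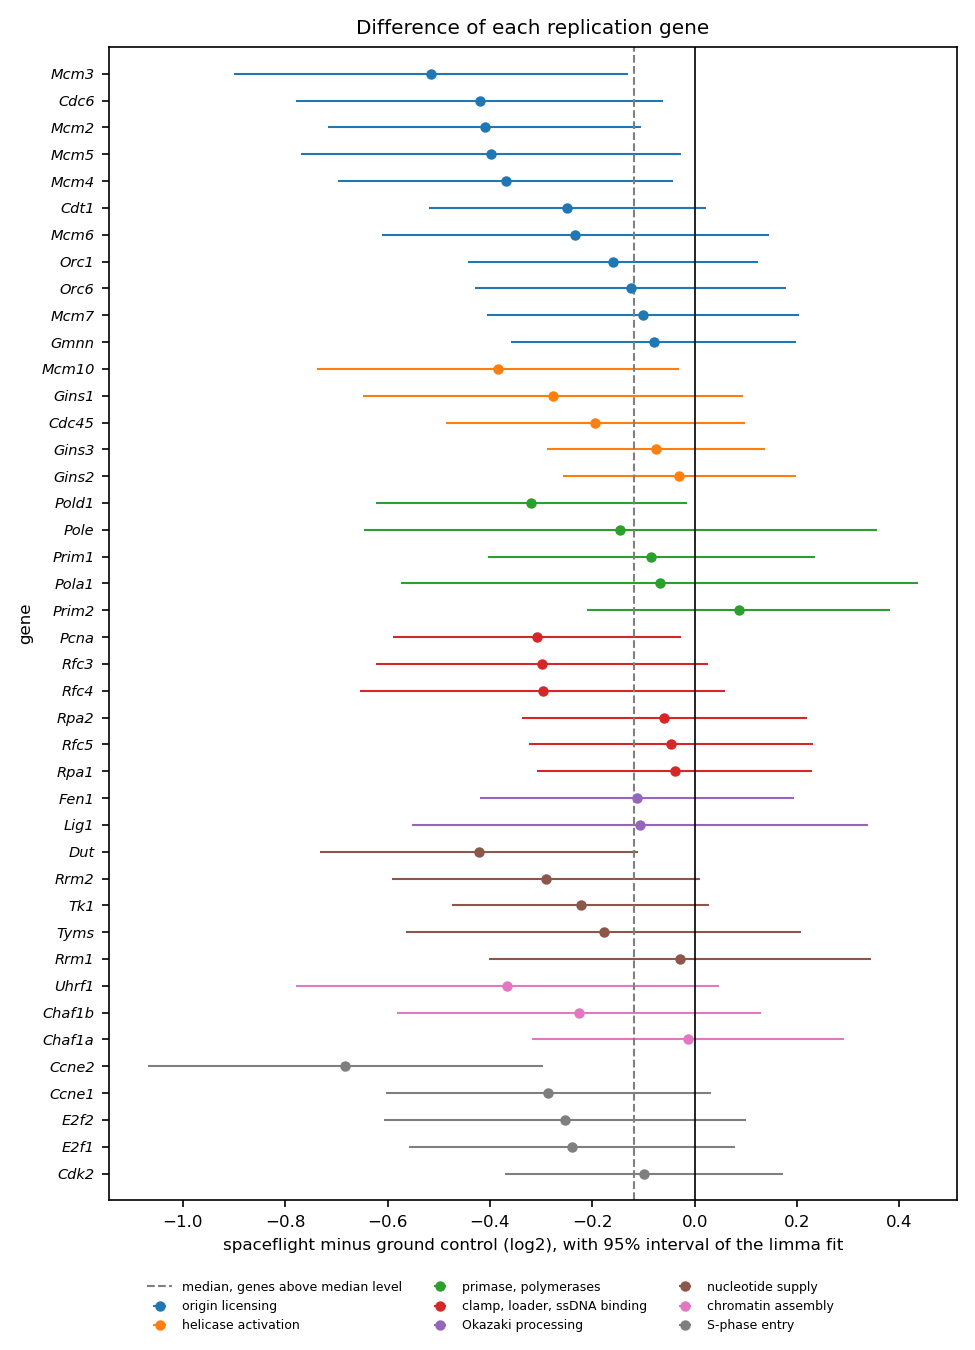
Difference of each of the 42 genes, spaceflight minus ground control on the log2 scale (horizontal axis), as a point with the 95% interval of the limma fit, grouped by role in colour. The dashed line is the median of all genes above the median level (-0.12), and 41 of the 42 points lie below 0.

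The 2 flown mice numbered 3 and 4 carried most of the difference. Relative to the ground-control mean of each gene, the median over the 42 genes was -0.08, 0.01, -0.46 and -0.37 in spaceflight replicates 1 to 4, against 0.08, -0.13, -0.09 and 0.17 in ground-control replicates 1 to 4. Spaceflight replicates 1 and 2 thus lay within the range of the controls, and replicates 3 and 4 below it. Over all genes above the median level the same median was -0.22, 0.00, -0.24 and -0.01 in spaceflight replicates 1 to 4, so replicate 3 was low in that background too and replicate 4 was not. Spaceflight replicate 3 was the lowest of the 8 arrays for 29 genes, against 21.5% of all genes and 36.1% of genes above the median level. Replicate 4 was the lowest for another 10, against 2174 of all 19938 genes and 812 of the 9969 genes above the median level. These 2 mice thus held the lowest value for 39. Ground-control replicate 4 was the highest array for 23 of the 42, against 8.5% of all genes and 1184 of the 9969 genes above the median level. Replicates 3 and 4 were both below the lowest control for 27 genes, while replicate 1 was within the control range for 27 and replicate 2 for 30. The matching shares over all genes were not counted, so these counts cannot be set against a background. The counts also depended on single mice. Without spaceflight replicate 3, 29 of 42 genes had a lower mean and 4 were lower at an unadjusted p under 0.05. Without replicate 4 these counts were 36 and 5. The matching shares of all genes were 51.8% and 5.28% without replicate 3, and 54.1% and 11.1% without replicate 4. So 5 of 42 at that p without replicate 4 was near the share of all genes. Without spaceflight replicate 2 the count at that p was 18, and without replicate 1 it was 15. Without ground-control replicate 1 it was 6, and without ground-control replicate 4 it was 4. The shares of all genes lower at that p were 10.9% and 4.94% without spaceflight replicates 2 and 1 in turn. They were 6.37% and 5.12% without ground-control replicates 1 and 4 in turn.

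**Figure D2:**
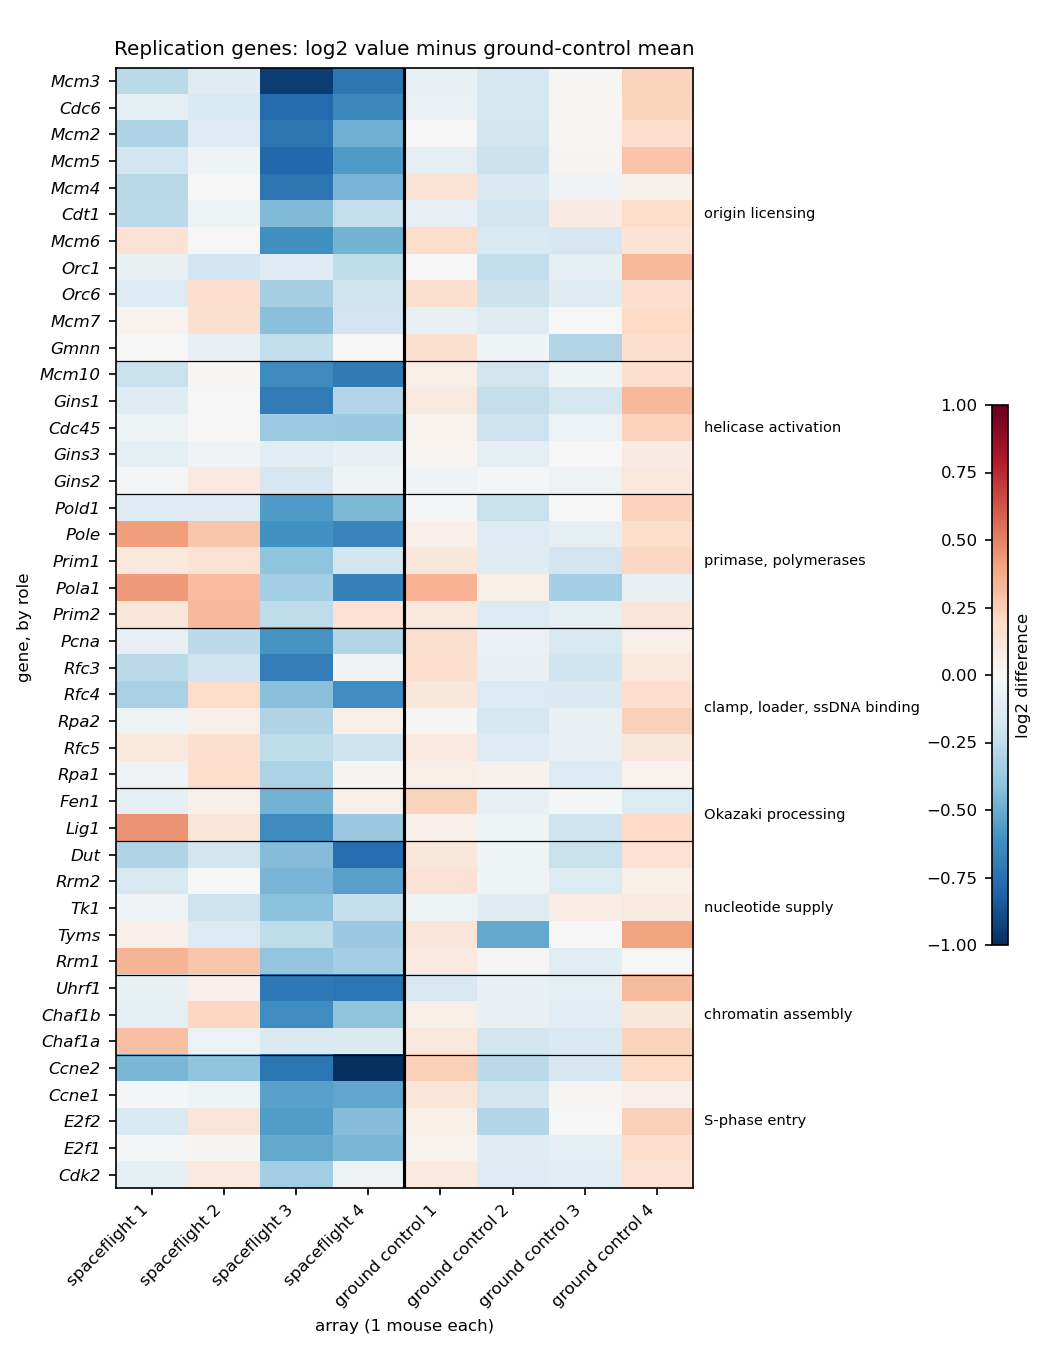
Log2 value minus the ground-control mean of the gene (colour, from -1 in blue to 1 in red) for the 42 genes in rows, by role, and the 8 arrays in columns. The spaceflight 3 and 4 columns are mostly blue, with medians of -0.46 and -0.37, and spaceflight 1 and 2 look like the controls.

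The array that stands apart and is low here is replicate 3, since replicate 1 stands apart without being low and replicate 4 is low without standing apart. Without replicates 1 and 3, the mean was lower for 36 of 42 genes, with a median of -0.18 and 5 genes lower at an unadjusted p under 0.05. Over all genes 53.4% had a lower mean at that setting and 3.97% were lower at that p, and over genes above the median level 51.2% and 4.78%. With cyclic loess normalization, which removes shifts that depend on brightness, it was lower for 30, with a median of -0.13 and 3 such genes. The shares there were 52.8% and 6% over all genes, and 55.3% and 7.58% over genes above the median level, so 3 of 42 at that p was near the background. On that scale the median deviation of the 42 genes from their own mean over the arrays was 0.14, 0.08, -0.22 and -0.33 in spaceflight replicates 1 to 4, against 0.13, -0.03, -0.07 and 0.19 in ground-control replicates 1 to 4. Replicates 3 and 4 were again the lower pair, with replicate 4 now below replicate 3 and replicate 2 below replicate 1.

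**Figure D3:**
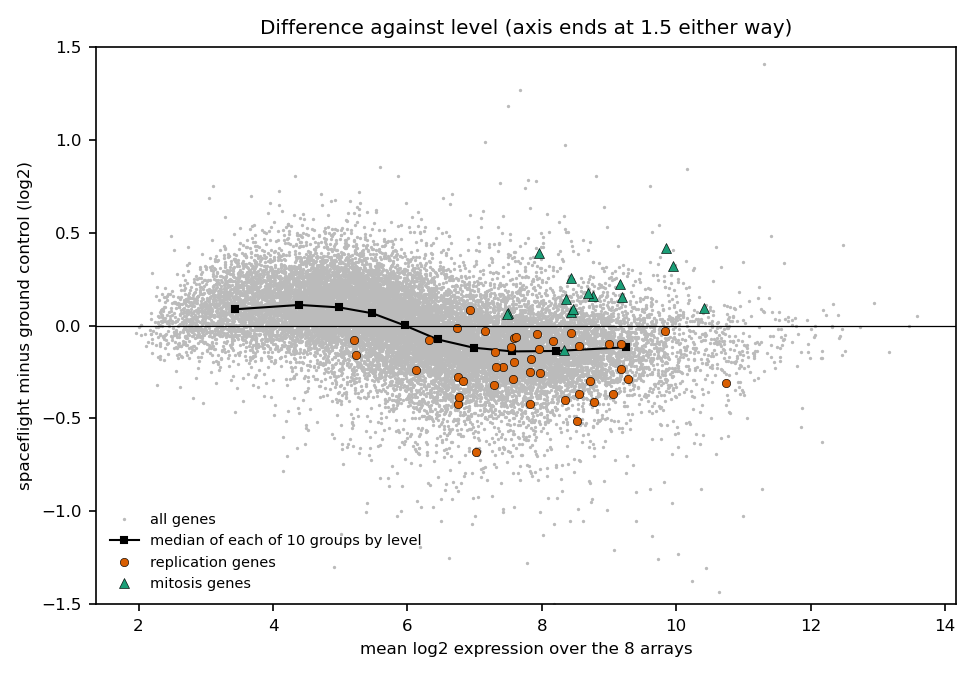
Difference between spaceflight and ground control (vertical axis, log2) against mean log2 expression over the 8 arrays (horizontal axis) for all genes in grey, the 42 replication genes as circles and 15 mitosis genes as triangles, with the median of each of 10 groups by level as black squares. The black line lies between 0.11 and -0.14, 41 of the 42 circles lie below 0 and 14 of the 15 triangles above 0.

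Origin licensing genes had lower means in each scaling tried, though some differences were close to 0. All 11 had a lower mean in spaceflight, with a median of -0.25. All 11 also did without replicates 1 and 3 and after cyclic loess, repeated quantile normalization or centring on the 75th percentile. Orc6 and Mcm7 were at -0.000 and -0.001 after cyclic loess, and at -0.015 and -0.013 without replicates 1 and 3. Gmnn was at -0.002 after centring. The 6 subunits of the MCM2-7 ring had a median of -0.38, which was -0.27 without replicates 1 and 3 and -0.26 after cyclic loess. Over genes above the median level, the share with a lower mean was 75.9% as deposited, 51.2% without replicates 1 and 3, 55.3% after cyclic loess, 63.7% after repeated quantile normalization and 59.1% after centring. At an unadjusted p under 0.05, 5 of the 11 were lower, against 7.38% of all genes and 12.4% of genes above the median level, and 0 passed after adjustment.

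Mcm2 was measured at 8.67, 8.85, 8.25 and 8.50 in spaceflight replicates 1 to 4, against 8.98, 8.80, 8.99 and 9.15 in ground-control replicates 1 to 4. Mcm3 was at 8.51, 8.66, 7.83 and 8.06 in spaceflight, against 8.70, 8.61, 8.79 and 9.01 in ground control. In both genes replicate 2 of the flown mice reached into the control range and replicate 3 was lowest. The difference was -0.41 ± 0.14 for Mcm2 (log2 difference ± SE, limma adjusted p = 0.358). It was -0.52 ± 0.18 for Mcm3 (limma adjusted p = 0.362), whose promoter above carries a pair of E2F-type matches just after the start.

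Mcm4 was at 8.46, 8.73, 8.00 and 8.27 in spaceflight, against 8.87, 8.59, 8.70 and 8.78 in ground control, a difference of -0.37 ± 0.15. Mcm5 was at 8.35, 8.50, 7.76 and 7.98 in spaceflight, against 8.45, 8.33, 8.57 and 8.83 in ground control, a difference of -0.40 ± 0.17. The limma adjusted p was 0.422 for Mcm4 and 0.445 for Mcm5, and the groups overlapped in both. The other ring subunits differed less, with -0.23 ± 0.17 for Mcm6 and -0.10 ± 0.14 for Mcm7. Differences between subunits were not tested. Without spaceflight replicate 3 the Mcm7 difference was 0.00.

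Cdc6, the ATPase that loads the ring together with Cdt1, was at 6.86, 6.81, 6.18 and 6.32 in spaceflight, against 6.90, 6.79, 6.98 and 7.18 in ground control. Its difference was -0.42 ± 0.16 (limma adjusted p = 0.412), and it came from replicates 3 and 4, since the other flown mice lay within the control range. Cdt1 differed by -0.25 ± 0.12 and its inhibitor geminin (Gmnn), which blocks a repeat round of licensing, by -0.08 ± 0.13. Orc1 and Orc6, subunits of the complex that marks origins, differed by -0.16 ± 0.13 and -0.13 ± 0.14. Gmnn and Orc1 were, with E2f1, the 3 genes of the 42 below the median level of all genes, where a dim signal limits what an array can show.

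**Figure D4:**
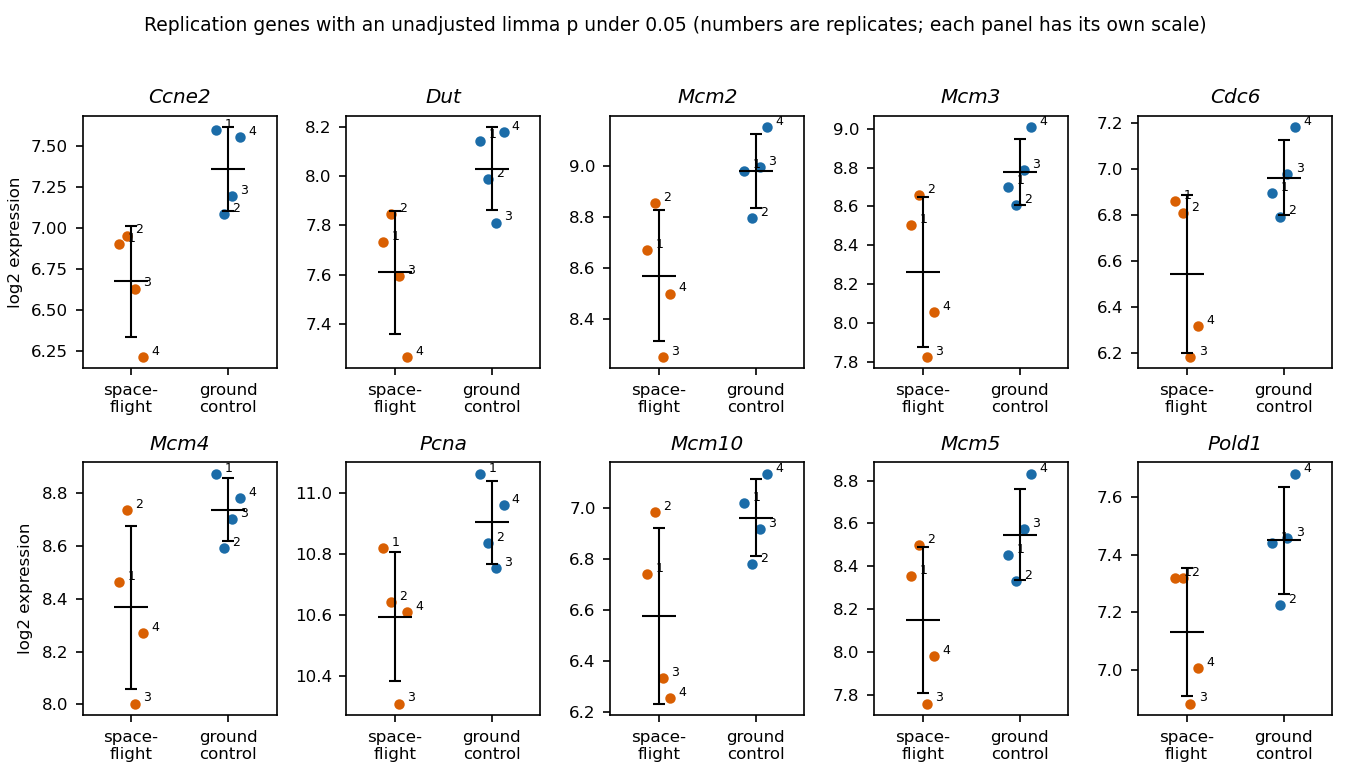
Log2 expression (vertical axis, a scale of its own in each panel) of the 10 genes at an unadjusted limma p under 0.05, with each numbered point a mouse and the bar and whiskers the mean ± SD of 4 mice, spaceflight left and ground control right. Only Ccne2 has all 4 flown mice below all 4 controls.

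Cyclin E2 was the gene of smallest p, and the groups did not overlap. Ccne2, which activates Cdk2 at the start of S phase, was at 6.90, 6.95, 6.63 and 6.22 in spaceflight, against 7.60, 7.09, 7.19 and 7.55 in ground control. The means were 6.68 ± 0.34 and 7.36 ± 0.26 (SD, n = 4 each), a difference of -0.68 ± 0.18 or 1.61-fold lower in spaceflight, which did not pass (limma adjusted p = 0.245). It was 1 of 42 genes with all flown mice below all controls, against 4.28% of all genes and 7.01% of genes above the median level. Its difference was -0.77 without replicates 1 and 3 and -0.58 after cyclic loess.

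The remaining S-phase entry genes differed less than Ccne2. Ccne1, the other E-type cyclin, was at 7.70, 7.67, 7.18 and 7.20 in spaceflight, against 7.84, 7.54, 7.73 and 7.77 in ground control, a difference of -0.29 ± 0.15. Replicates 3 and 4 of the flown mice were below each control and the other flown mice were not. The activators E2f1 and E2f2 differed by -0.24 ± 0.15 and -0.25 ± 0.16. Cdk2, the kinase partner of both cyclins, differed by -0.10 ± 0.12. The group had 5 genes, all 5 with a lower mean and a median of -0.25. The median was -0.17 after cyclic loess, where 4 of 5 were lower and Cdk2 was at 0.01.

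Helicase activation genes were led by Mcm10, a factor that helps start the helicase. It was at 6.74, 6.98, 6.33 and 6.26 in spaceflight, against 7.02, 6.78, 6.92 and 7.13 in ground control, a difference of -0.38 ± 0.16 (limma adjusted p = 0.443). Cdc45, which joins the ring at firing, differed by -0.19 ± 0.13. The GINS subunits differed by -0.28 ± 0.17 (Gins1), -0.08 ± 0.10 (Gins3) and -0.03 ± 0.10 (Gins2). Gins2 was at 7.15, 7.27, 7.01 and 7.14 in spaceflight, against 7.14, 7.16, 7.12 and 7.28 in ground control, so that its 95% interval ran from -0.26 to 0.20.

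Primase and polymerase genes differed in direction with the scaling. Pold1, the catalytic subunit of polymerase delta, was at 7.32, 7.32, 6.88 and 7.01 in spaceflight, against 7.44, 7.23, 7.46 and 7.68 in ground control, a difference of -0.32 ± 0.14 (limma adjusted p = 0.447). Pole and Pola1, the catalytic subunits of polymerases epsilon and alpha, varied most among flown mice. Pole was at 7.80, 7.66, 6.78 and 6.71 in spaceflight, against 7.43, 7.25, 7.28 and 7.56 in ground control. Pola1 was at 8.05, 7.93, 7.29 and 6.95 in spaceflight, against 7.97, 7.68, 7.29 and 7.55 in ground control. Flown mice 1 and 2 thus lay above the controls for Pole and mice 3 and 4 below, which left group differences of -0.15 ± 0.23 for Pole and -0.07 ± 0.23 for Pola1. Of the primase subunits, Prim1 differed by -0.09 ± 0.15 and Prim2, the single gene of the 42 with a higher mean in spaceflight, by 0.09 ± 0.14. The median of the 5 genes was -0.09, and it was 0.04 after cyclic loess and 0.00 after repeated quantile normalization, with 2 of 5 lower in each. Without replicates 1 and 3 it was -0.18, with 4 of 5 lower.

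Pcna, the sliding clamp that holds polymerases on DNA, was at 10.82, 10.64, 10.31 and 10.61 in spaceflight, against 11.06, 10.83, 10.75 and 10.96 in ground control. The difference was -0.31 ± 0.13 (limma adjusted p = 0.438), and 3 of 4 flown mice were below the lowest control. Among subunits of the clamp loader, Rfc3 and Rfc4 each differed by -0.30, with standard errors of 0.15 and 0.16, and Rfc5 by -0.05 ± 0.13. The single-strand binding subunits Rpa1 and Rpa2 were close to 0, at -0.04 ± 0.12 and -0.06 ± 0.13. Rpa1 was at 8.42, 8.64, 8.14 and 8.48 in spaceflight, against 8.52, 8.50, 8.32 and 8.50 in ground control, with a 95% interval from -0.31 to 0.23. All 6 clamp, loader and binding genes had a lower mean with the values as deposited, while 3 of 6 did after cyclic loess.

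The genes that finish lagging-strand fragments were near the background. Fen1, the flap nuclease, was at 7.50, 7.64, 7.12 and 7.66 in spaceflight, against 7.82, 7.52, 7.57 and 7.46 in ground control, a difference of -0.11 ± 0.14. Lig1, the replicative ligase, differed by -0.11 ± 0.20, and its flown mice spread from 7.98 to 9.06, against 8.41 to 8.81 in ground control. Both differences were close to the -0.12 of genes above the median level.

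Nucleotide supply was led by Dut, the enzyme that destroys dUTP and so keeps uracil out of DNA. Dut was at 7.73, 7.84, 7.59 and 7.27 in spaceflight, against 8.14, 7.99, 7.81 and 8.18 in ground control, a difference of -0.42 ± 0.14 (limma adjusted p = 0.351). Flown mouse 2 was the single one above the lowest control. Of the ribonucleotide reductase subunits, Rrm2, whose level limits the enzyme in S phase, differed by -0.29 ± 0.14 and Rrm1 by -0.03 ± 0.17, and the gap between them was not tested. Rrm1 was at 10.20, 10.14, 9.46 and 9.52 in spaceflight, against 9.95, 9.86, 9.74 and 9.86 in ground control, so the mice numbered 1 and 2 were above and 3 and 4 below each control. The thymidylate genes Tyms and Tk1 differed by -0.18 ± 0.18 and -0.22 ± 0.11. All 5 genes had a lower mean, with a median of -0.22, which is the value of Tk1. A second Tk1 probe set gave -0.05, as described below, so the median depends on that choice. Without replicates 1 and 3, all 5 had a lower mean, with a median of -0.26. After cyclic loess 4 of 5 did, with a median of -0.11, and after repeated quantile normalization or centring on the 75th percentile 4 of 5, with a median of -0.14.

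Among chromatin genes that act behind the fork, Uhrf1 and Chaf1b were below each control in flown mice 3 and 4, and Chaf1a in no flown mouse. Uhrf1, which recruits the maintenance DNA methyltransferase, was at 9.16, 9.29, 8.52 and 8.51 in spaceflight, against 9.08, 9.16, 9.15 and 9.55 in ground control, a difference of -0.37 ± 0.19 (limma adjusted p = 0.487). Of the subunits of chromatin assembly factor 1, Chaf1b differed by -0.23 ± 0.16 and Chaf1a by -0.01 ± 0.14. Chaf1a was at 7.04, 6.68, 6.59 and 6.60 in spaceflight, against 6.85, 6.56, 6.59 and 6.97 in ground control, with a 95% interval from -0.32 to 0.29.

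For 2 of the 42 genes the annotation names more than 1 probe set, and the highest mean chose a probe set whose number falls among genes of another chromosome. Pcna lies on chromosome 2, while 9 of the 10 nearest named probe sets by number were for genes on chromosome 19. Its other probe set, whose neighbours lie on chromosome 2, gave a difference of -0.31 ± 0.12 in the fit over every probe set, nearly the same value. Tk1 lies on chromosome 11 and 9 of 9 neighbours were on chromosome 8. Its other probe set, with neighbours on chromosome 11, differed by -0.05 ± 0.11, against -0.22 for the one used. The Tk1 value is therefore uncertain, and so is the nucleotide supply median, which equals it. The remaining 40 probe sets matched the chromosome of their gene.

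Other genes of replication and of the step from G1 to S, listed by name, also had mostly lower means in spaceflight. Of 76 listed, 74 were measured and 63 had a lower mean, with a median of -0.16, and 0 passed after adjustment in either direction. At an unadjusted p under 0.05, 15 were lower and 1 was higher, against 7.38% of all genes and 12.4% of genes above the median level lower. In 11 of the 74 all flown mice were below all controls, against 4.28% of all genes and 7.01% of genes above the median level. Spaceflight replicate 1 was the lowest array for 14 of the 74, and for 0 of the 42. It was lowest for 4562 of all 19938 genes and 3651 of the 9969 genes above the median level. After cyclic loess 44 of the 74 had a lower mean, with a median of -0.07, against 52.8% of all genes and 55.3% of genes above the median level.

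The smallest p-values in that list were those of Ccnd1, Ccnd2, Tfdp1, Pole4, Hells and Cdk4. Ccnd1, a D-type cyclin that responds to growth signals, was at 6.42, 6.88, 6.65 and 7.03 in spaceflight, against 7.37, 7.31, 7.90 and 7.47 in ground control, a difference of -0.76 ± 0.16 (limma adjusted p = 0.134). Ccnd2 was at 9.26, 10.06, 9.67 and 9.79 in spaceflight, against 10.35, 10.28, 10.55 and 10.21 in ground control, a difference of -0.66 ± 0.16 (limma adjusted p = 0.194). For these D cyclins flown mouse 1 was the lowest. Ccnd3, the other D-type cyclin, was lowest in flown mouse 3, at 9.07, and differed by -0.28 ± 0.13 (limma adjusted p = 0.463). Cdk4, their kinase partner, differed by -0.38 ± 0.12 (limma adjusted p = 0.318).

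Tfdp1, the dimer partner of E2F factors, was at 8.69, 8.85, 8.60 and 8.45 in spaceflight, against 9.09, 8.97, 9.29 and 9.22 in ground control. Its difference was -0.50 ± 0.12 (limma adjusted p = 0.203), and it was -0.49 without replicates 1 and 3. Pole4, a small subunit of polymerase epsilon, differed by -0.57 ± 0.15 (limma adjusted p = 0.248). Hells, a chromatin remodeller of dividing lymphocytes, differed by -0.66 ± 0.18 (limma adjusted p = 0.256). The single gene higher at an unadjusted p under 0.05 was Tfdp2, the other dimer partner, which was singled out after its value was seen. It was at 8.74, 8.98, 8.15 and 8.70 in spaceflight, against 8.28, 8.16, 8.13 and 7.98 in ground control, a difference of 0.50 ± 0.16 (limma adjusted p = 0.344).

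Mitosis genes did not share the lower means. Of 16 listed 15 were measured, 14 had a higher mean in spaceflight, and the median difference was 0.15, or 0.26 after cyclic loess with 14 again higher. The share with a higher mean was 46.5% of all genes and 24.1% of genes above the median level, and after cyclic loess 47.2% and 44.7%. None passed after adjustment and 1 was higher at an unadjusted p under 0.05, against 3.43% of all genes and 1.33% of genes above the median level. Ccnb2, a cyclin of entry into mitosis, was at 10.32, 10.37, 9.73 and 9.84 in spaceflight, against 9.83, 9.55, 9.48 and 9.72 in ground control, a difference of 0.42 ± 0.16 (limma adjusted p = 0.4). Cenpe, a motor at the centromere, differed by 0.39 ± 0.21 and Nusap1, a spindle protein, by 0.26 ± 0.18.

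For mitosis genes too, flown mice 1 and 2 were above flown mice 3 and 4. Relative to the ground-control mean, their median was 0.48, 0.46, -0.15 and -0.05 in spaceflight replicates 1 to 4, against 0.15, -0.07, -0.15 and 0.06 in ground-control replicates 1 to 4. Flown mice 1 and 2 were thus above the controls for mitosis genes and within their range for replication genes, and mouse 4 was within the control range for mitosis genes, mouse 3 was just below its lower end, and both were below it for replication genes. In each flown mouse the mitosis median was above the replication median. The difference between the lists was not tested.

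**Figure D5:**
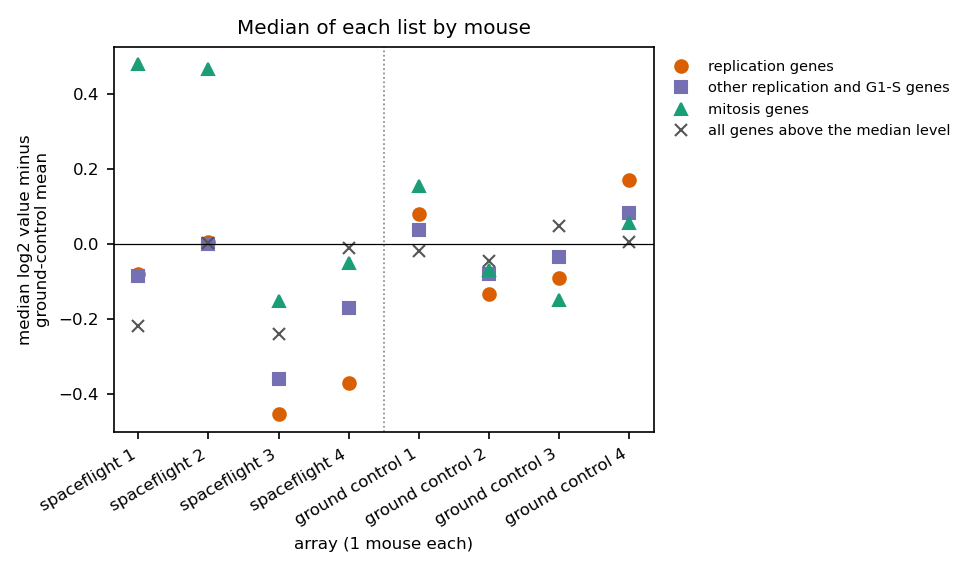
Median over each list of the log2 value minus the gene's ground-control mean (vertical axis) in each of the 8 arrays (horizontal axis), for the 42 replication genes, 74 other replication and G1-S genes, 15 mitosis genes and all genes above the median level. In the 4 flown mice the replication medians lie at -0.08, 0.01, -0.46 and -0.37, and the mitosis medians at 0.48, 0.46, -0.15 and -0.05.

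Markers of the cells in the lobes moved with some of these values, and their part in the result was not tested. The mean level of the 10 thymocyte markers was 10.07 to 10.34 in spaceflight and 10.31 to 10.40 in ground control, lowest in spaceflight replicate 3, and 10 of 10 had a lower mean. The 6 markers of the double-negative stage, which holds dividing precursors, were at 6.95 to 7.32 in spaceflight and 7.04 to 7.28 in ground control. Their mean level was again lowest in replicate 3, and 5 of 6 had a lower mean. In mean level, spaceflight replicates 3 and 4 were below each control, replicate 1 was within the control range and replicate 2 was above it. A link with the replication genes was not tested. The 7 epithelial markers were at 7.21 to 7.51 in spaceflight and 7.80 to 7.91 in ground control, and 7 of 7 had a lower mean. Spaceflight replicate 1 was the lowest array for the mean level of markers of B cells, macrophages and dendritic cells, fat cells, muscle, fibroblasts and endothelium, and for the 1 red cell marker measured. The ranges were 6.83 to 7.83 in spaceflight and 6.85 to 7.67 in ground control for 3 B cell markers, and 6.88 to 7.91 in spaceflight and 7.62 to 7.92 in ground control for 6 macrophage and dendritic cell markers. They were 7.44 to 8.42 in spaceflight and 8.43 to 8.95 in ground control for 4 fat cell markers, and 5.89 to 8.03 in spaceflight and 7.37 to 8.31 in ground control for 5 muscle markers. For 5 fibroblast and endothelial markers they were 7.92 to 8.70 in spaceflight and 8.26 to 9.02 in ground control. On a log2 array scale no marker reads 0, so absence cannot be read from these values. For the replication genes the median of replicate 1 was -0.08, within the range of the controls.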

How the data were processed

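Thymus RNA of 8 mice was measured on Affymetrix arrays, from 6 µg of total RNA extracted with Trizol and made into biotin-labelled cRNA, per the labels' protocols. As deposited, expression was on a log2 scale. RMA, which corrects background, equalizes arrays and sums probes, and limma are named in the submitters' processing notes. The deposited gene values still differed in spread, with an interquartile range of 2.22 in spaceflight replicates 1 and 3, against 2.55 to 2.84 in the others. The cause was not tested. Versions, genome build and filters are not given in the sources used here. Of 35557 probe sets, the lowest unbroken run of numbers (6614, none annotated) was taken as controls and left out, a choice made after seeing the data. Of the other 28943, 21789 had a single gene in the platform annotation and 1621 had several. Symbols were updated by Entrez number (21698 matched, GRCm38.p6).

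Spaceflight was compared with ground control over all 19938 genes using limma 3.58.1 under R 4.3.3 (moderated two-sided test from eBayes, p-values adjusted by Benjamini-Hochberg over all genes, threshold 0.05). A fit over every probe set was an alternative. The step was also run on simulated data with independent noise for each gene and array. That run does not cover shifts shared by a whole array. No 2 arrays were identical. Array number limits the precision, and no label says that samples came from separate litters or batches.

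The members, role groups and lists were chosen with earlier results of these data known. Genes given by array were those at an unadjusted p under 0.05, the 4 nearest to 0 and the smallest p of each role, then 6 other replication and 3 mitosis genes of smallest p. Values of Pole, Pola1, Ccne1 and Tfdp2 by array were added after they were seen. Replicate numbers are shared between groups without a stated pairing, and the numbers were not used to pair mice. Same-numbered mice correlated at -0.30 to 0.24 after group means were removed, which cannot show whether they were paired. Mcm and other subunits were compared as differences, not as levels.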

Additional observations from a re-analysis of the deposited data

Results flagged for a closer look

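Rpa1 in ground-control replicate 3 was at 8.32 on the log2 scale, below the other 3 ground controls at 8.50 to 8.52, and the gap was 0.883 of the group's range. It was the single such value among 84 groups of 4 mice tested, and chance alone flags about 1 in every 20 groups, which is more than were found here.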

How the results depend on the processing

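None of the 42 genes passed under any alternative, and Ccne2 had the smallest adjusted p in each (0.149 to 0.614 by limma); 28 of the 42 kept their sign throughout. Over all genes 16 were called, 25 when tested among genes above the median level, and 6 to 15 with 1 mouse left out. The 10 replication genes lower at an unadjusted p under 0.05 became 5 without spaceflight replicates 1 and 3 and 4 after centring on the 75th percentile. They became 5 after repeated quantile normalization, 3 after cyclic loess, and 4 to 18 with 1 mouse left out. Among genes above the median level, the shares lower at that p were 4.78%, 7.7%, 9.6% and 7.58%, in that order up to cyclic loess. Over all genes they were 3.97%, 4.49%, 6.96% and 6%, and 4.47% to 11.1% with 1 mouse left out. The counts after these scalings were near the shares of genes above the median level. Centring on the 75th percentile moved the median of all genes to 0.06 and the share of all genes with a lower mean to 38.2%, against 53.5%. With the replicate number as a block, 41 genes had a lower mean, 9 were lower at an unadjusted p under 0.05 and 20 genes of all were called. Over all genes 53.5% had a lower mean at that setting and 7.24% were lower at that p. No pairing by number is stated. Of the 8 arrays 1 correlated best with its own number, and such a count cannot show whether mice were paired.

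Log2 differences that turned positive were, without spaceflight replicates 1 and 3, Gins2 0.034, Fen1 0.055, Rpa1 0.10, Rpa2 0.059 and Cdk2 0.023. After centring on the 75th percentile they were Gins2 0.048, Gins3 0.003, Pola1 0.010, Rfc5 0.032, Rpa1 0.040, Rpa2 0.019, Rrm1 0.050 and Chaf1a 0.066. After repeated quantile normalization they were Gins2 0.037, Pola1 0.018, Prim1 0.004, Rfc5 0.033, Rpa1 0.049, Rpa2 0.020, Rrm1 0.010 and Chaf1a 0.049. After cyclic loess they were Gins2 0.076, Pola1 0.052, Prim1 0.039, Rfc5 0.078, Fen1 0.006, Lig1 0.011, Rpa1 0.082, Rpa2 0.062, Rrm1 0.054, Cdk2 0.007 and Chaf1a 0.063. The cause was not tested. With 1 mouse left out, the ranges that crossed 0 were -0.116 to 0.064 for Chaf1a, -0.172 to 0.007 for Fen1, -0.074 to 0.015 for Gins2, -0.292 to 0.066 for Lig1, -0.189 to 0.004 for Mcm7 and -0.234 to 0.134 for Pola1. They were -0.333 to 0.030 for Pole, -0.160 to 0.021 for Prim1, -0.117 to 0.022 for Rfc5, -0.111 to 0.054 for Rpa1, -0.118 to 0.022 for Rpa2 and -0.152 to 0.094 for Rrm1. Orc1 and Gmnn were dim, at percentiles 29.8 and 29.3 of level over all genes, and no background level was estimated. Having 4 mice per group limits all values.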
